A study of Schizosaccharomyces pombe with 12 samples.

Results

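The genes of the proteasome subunits were followed in fission yeast treated with an actin drug, in cells with and without serine 2 in the tail of RNA polymerase II. A gene was included if its symbol is *rpn*, *rpt*, *pre*, *pup*, *pts*, *pam* or *mts* with a number, and if its description, where there is one, names a proteasome subunit. This gave 30 probe sets of the 4875 *S. pombe* probe sets on the array. They fall into 5 of the α ring of the core particle, 7 of its β ring, 6 of the ATPase ring of the regulatory particle and 12 of its other subunits. A probe set is a group of short array probes for one transcript and is called a gene below. One of them is shared by *rpn501* and *rpn502*, near-identical copies whose RNAs it cannot separate, so the pair has a single value.

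The proteasome is the protease that degrades ubiquitin-tagged proteins in the cytosol and nucleus. Its core particle is a barrel in which rings of β subunits, some of them proteolytic, lie between rings of α subunits that form the gate. The regulatory particle binds ubiquitin chains, removes them, and unfolds the substrate with a ring of ATPases that threads it into the core. In fission yeast, as in other eukaryotes, the exit from mitosis needs the degradation of securin and cyclin by the proteasome, and several of its genes were found as *mts* mutants that arrest in mitosis.

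RNA was taken from *rpb1-12XCTD* and *rpb1-12XS2ACTD* cells grown to mid-log phase in YES medium at 30 °C. Each strain makes the RNA polymerase II subunit Rpb1p with a shortened C-terminal domain (CTD) of 12 heptad repeats. The repeats are wild-type in *rpb1-12XCTD*, the control, while in *rpb1-12XS2ACTD* alanine takes the place of serine 2, a residue that CTD kinases phosphorylate. Cultures received 0.5 µM LatA (latrunculin A), which binds actin monomers and hinders filament assembly, or its solvent DMSO, for 3 h. Each of the 4 groups has 3 biological replicates, so 12 arrays in all, and the shortened CTD is common to every sample.

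The deposited values are log2 intensities in which every gene has a median of 0 over the 12 arrays, so a gene can be compared between arrays but its level cannot be set against that of another gene. Arrays have no sequencing depth, so the precision of a value is set by how closely its 3 replicates lie. The SD (standard deviation) between them had a median over all genes of 0.195 log2 for *rpb1-12XCTD* with DMSO and of 0.0684 to 0.0974 for the other 3 groups. The arrays of the former group also had unlike medians over all genes, from −0.164 to 0.0697 log2. Array weights from limma, which are low for arrays that deviate from their group, were 0.202, 0.553 and 0.167 for that group and 0.342 for replicate 1 of DMSO-treated *rpb1-12XS2ACTD*, against 0.872 to 3.70 for all others. The counts, ranks, class medians and the correlation between strains are also given without single arrays. RNA of *rpb1* cannot check the labels, since each strain transcribes its own *rpb1* allele.

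LatA was accompanied by a small, broad increase of proteasome subunit RNA in the control strain. In *rpb1-12XCTD* all 30 genes had a higher mean with LatA than with DMSO, against 65.5% of all genes. The increase had a median of 0.31 log2 (1.24 fold), in a range from 0.10 to 0.56. Quantile normalization turned the sign of *pts1* alone. The increase passed an adjusted p under 0.05 for 23 genes and no gene fell, whereas 27.3% of all genes rose and 8.33% fell by the same measure. The test was limma with a single fit of the 4 groups, and p-values were adjusted over all 4875 genes by Benjamini-Hochberg. None of the 30 genes passed the threshold of 1.5 fold that the methods add, which 13.2% of all genes passed in either direction. For 24 of the 30 genes every LatA array exceeded all 3 DMSO arrays, as for 32.3% of all genes. The median change over all genes was 0.098 log2, with a SD of 0.43 among genes and of 0.11 among the 30. Arrays measure RNA of a whole culture, in which more RNA per cell and more cells with a high level cannot be told apart.

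In the mutant the same genes were higher again. In *rpb1-12XS2ACTD* all 30 genes had a higher mean with LatA, against 48.6% of all genes. The increase had a median of 0.31 log2 (1.24 fold) and ran from 0.099 to 0.52. The increase passed the adjusted threshold for 24 genes and none fell, against 17.4% that rose and 16.0% that fell among all genes. Again none of the 30 genes exceeded 1.5 fold, which 11.5% of all genes did. For all 30 genes every LatA array lay above every DMSO array of this strain, as it did for 27.7% of all genes, while the median change over all genes was −0.0086 log2. The 2 LatA comparisons share no arrays, and the changes of the 30 genes in the mutant and in the control had a Pearson r of 0.80 and a Spearman rho of 0.74. Over all 4875 genes r was 0.83. Without DMSO replicate 1 of *rpb1-12XS2ACTD* the coefficients of the 30 genes were 0.66 and 0.55, and r over all genes was 0.79. These coefficients describe genes of shared arrays, which are not independent replicates.

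**Figure D1:**
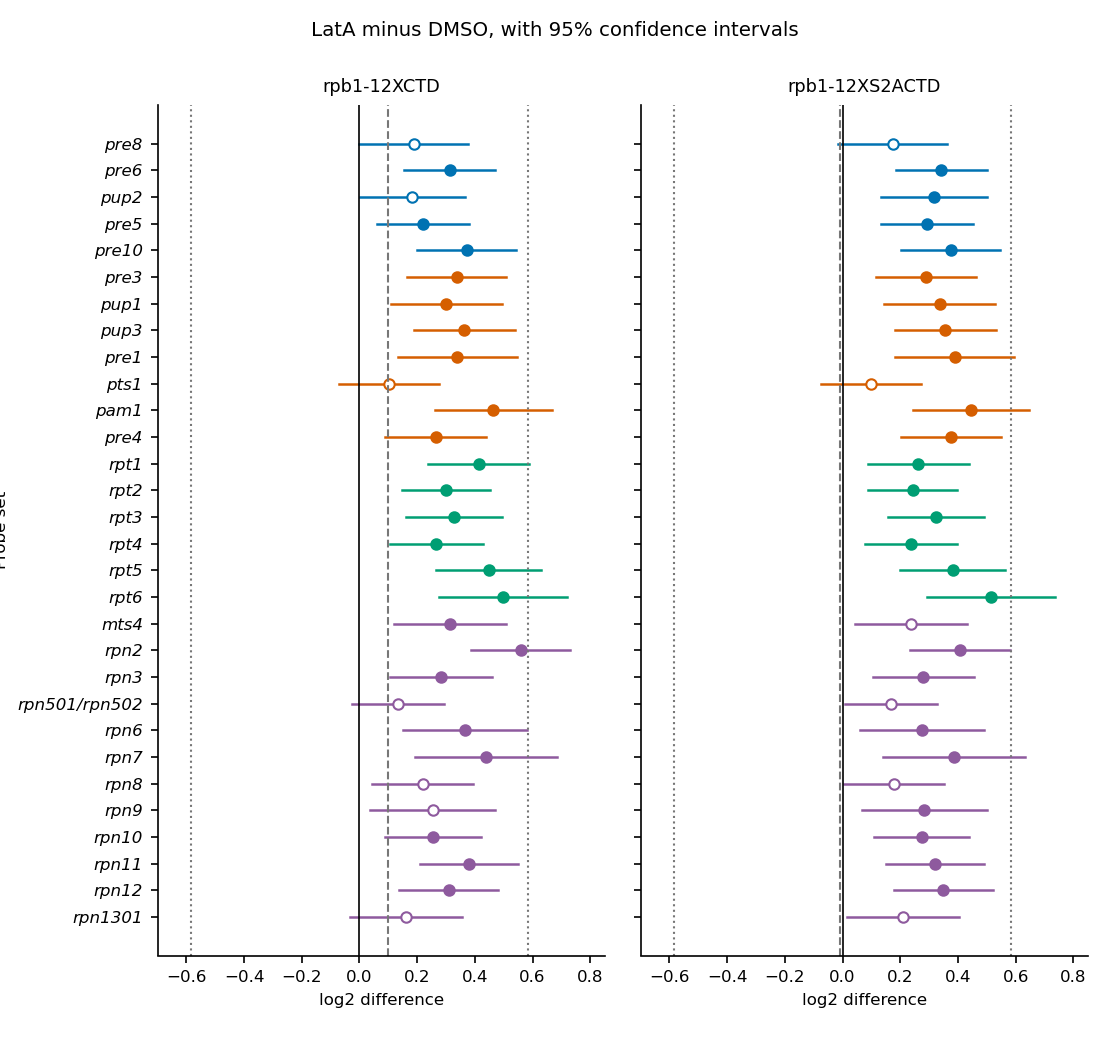
LatA minus DMSO (log2, x axis) for the 30 subunit genes in *rpb1-12XCTD* and *rpb1-12XS2ACTD*, 3 arrays per group, with 95% confidence intervals from limma. Filled points passed an adjusted p under 0.05, the dashed line is the median of all genes and the dotted lines mark 1.5 fold. Colours give the α ring (blue), β ring (orange), ATPase ring (green) and other regulatory subunits (purple). All points lie to the right of 0 as deposited, although quantile normalization places *pts1* of *rpb1-12XCTD* slightly below 0, and none reaches 1.5 fold.

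The rise was small beside the range of the array. In *rpb1-12XCTD* the 30 changes lay between the 50.3rd and the 87.9th percentile of all genes, with a median at the 72.4th. In *rpb1-12XS2ACTD* they lay between the 64.5th and the 91.8th, with a median at the 82.6th. The control median lay at the 76.9th, 68.3rd and 70.7th percentile without DMSO replicates 1, 2 and 3 of that strain, and the mutant median at the 81.3rd without DMSO replicate 1. The genes thus held moderate ranks, and in the scatter of the changes in both strains they lie close to each other. The standard errors of the 30 changes ran from 0.069 to 0.11 log2. In limma 26 genes in the control and 28 in the mutant had an unadjusted p under 0.05, against 45.6% and 43.7% of all genes in either direction.

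**Figure D2:**
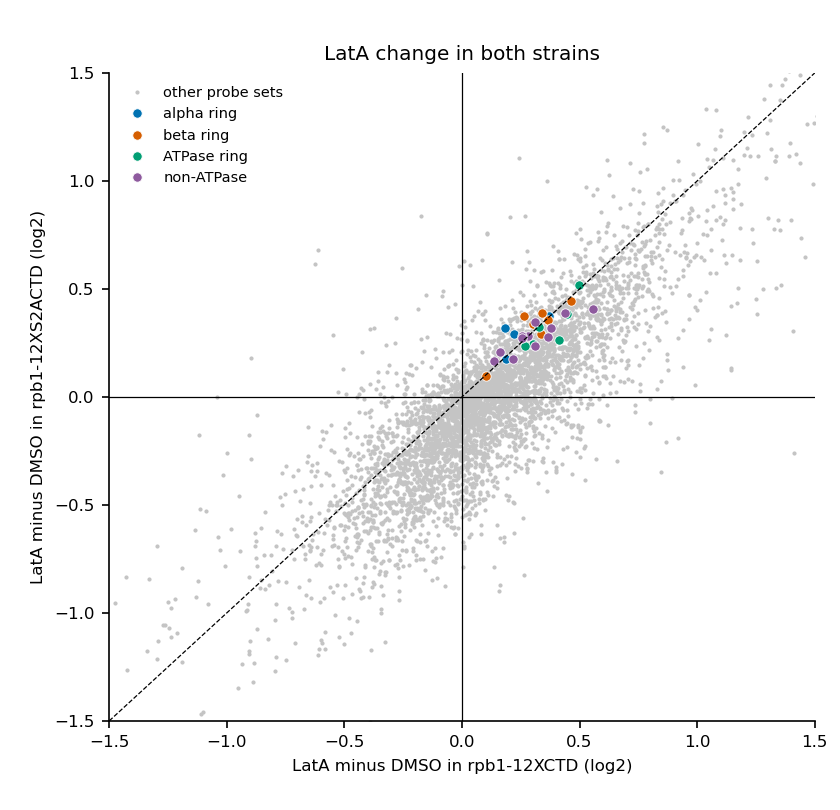
LatA minus DMSO (log2) in *rpb1-12XCTD* (x axis) and *rpb1-12XS2ACTD* (y axis) for each gene, the mean of 3 arrays minus the mean of 3 arrays. Coloured points are the 30 subunit genes, grey points the other genes, of which 53 lie beyond the axes, and the dashed line marks equal change. The subunit genes form a compact group near the dashed line, from 0.10 to 0.56 on the x axis and from 0.099 to 0.52 on the y axis.

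Among the α subunits, which form the outer rings of the core and its gate, 3 of 5 genes rose in *rpb1-12XCTD* and 4 of 5 in *rpb1-12XS2ACTD*. The shares of all genes that rose were 27.3% and 17.4%. The largest change was that of *pre10* (α7), which rose by 0.37 log2 in each strain (limma adjusted p = 0.00412 and 0.00488). *pre6* (α4) rose by 0.31 and 0.34, and *pre5* (α6) by 0.22 and 0.29. *pup2* (α5) differed by 0.18 in the control (adjusted p = 0.109) and rose by 0.32 in the mutant (adjusted p = 0.0138). *pre8* (α2) passed in neither strain, with differences of 0.19 and 0.17, although without DMSO replicate 3 of the control it differed there by 0.26 (adjusted p = 0.0174). With array weights it passed in both strains (adjusted p = 0.0367 and 0.0423). The α3 gene *pre9* was not analysed here.

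Of the 7 β subunit genes, 6 rose in each strain (27.3% and 17.4% of all genes in control and mutant) and only *pts1* did not pass. The β1, β2 and β5 subunits carry the proteolytic sites, with cleavage after acidic, basic and hydrophobic residues. *pre3* (β1) had log2 values of −0.26, −0.37 and −0.14 with DMSO and 0.026, 0.11 and 0.092 with LatA in *rpb1-12XCTD*. In *rpb1-12XS2ACTD* its values were −0.20, −0.16 and −0.026 with DMSO and 0.17, 0.10 and 0.22 with LatA. The groups did not overlap in either strain, and *pre3* rose by 0.34 ± 0.078 (standard error, SE, n = 3 per group) in the control and 0.29 ± 0.078 in the mutant (limma adjusted p = 0.00668 and 0.0159). The mutant call was lost without its DMSO replicate 1 or 2 or its LatA replicate 3 (adjusted p = 0.0580, 0.0539 and 0.0668).

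*pup1* (β2), for the trypsin-like subunit, had DMSO values of −0.30, −0.33 and −0.019 in *rpb1-12XCTD* and LatA values of 0.019, 0.11 and 0.12. In *rpb1-12XS2ACTD* they were −0.18, −0.12 and −0.087 with DMSO and 0.27, 0.13 and 0.22 with LatA. Replicate 3 of DMSO-treated *rpb1-12XCTD* lay close to the LatA arrays. *pup1* rose by 0.30 ± 0.087 (SE) in the control and by 0.34 ± 0.087 in the mutant (limma adjusted p = 0.0209 and 0.0134). The control call was lost without DMSO replicate 1 or 2 or LatA replicate 2 or 3 of that strain (adjusted p = 0.0518, 0.0676, 0.0743 and 0.0731), and the mutant call without its LatA replicate 1 (adjusted p = 0.0539).

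The chymotrypsin-like β5 subunit is encoded by *pts1*, whose LatA change was the smallest of the 30 in both strains. Its values in *rpb1-12XCTD* were −0.12, −0.19 and 0.095 with DMSO and −0.0038, 0.038 and 0.049 with LatA, so that the highest value of all 6 was a DMSO array. In *rpb1-12XS2ACTD* it had −0.065, −0.022 and −0.0097 with DMSO and 0.11, 0.0038 and 0.088 with LatA, groups that met without overlap. The differences were 0.10 ± 0.078 (SE) and 0.099 ± 0.078 log2 (limma adjusted p = 0.344 and 0.366), with 95% intervals from −0.071 to 0.27 and from −0.074 to 0.27. The median change of the β ring, 0.34 in the control, lies outside the first interval. Without replicate 3 of DMSO-treated *rpb1-12XCTD* the *pts1* difference was 0.19 and passed the threshold (adjusted p = 0.0219).

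Of the other β genes, *pam1* (β6) changed most. It had −0.35, −0.46 and −0.14 with DMSO and 0.088, 0.21 and 0.15 with LatA in the control. In the mutant it had −0.29, −0.12 and −0.088 with DMSO and 0.33, 0.20 and 0.31 with LatA. The groups were well apart in both strains, and *pam1* rose by 0.46 ± 0.092 (SE) and 0.45 ± 0.092 log2 (limma adjusted p = 0.00294 and 0.00458). *pup3* (β3) rose by 0.36 in each strain, *pre1* (β4) by 0.34 and 0.39, and *pre4* (β7) by 0.26 in the control and 0.38 in the mutant.

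**Figure D3:**
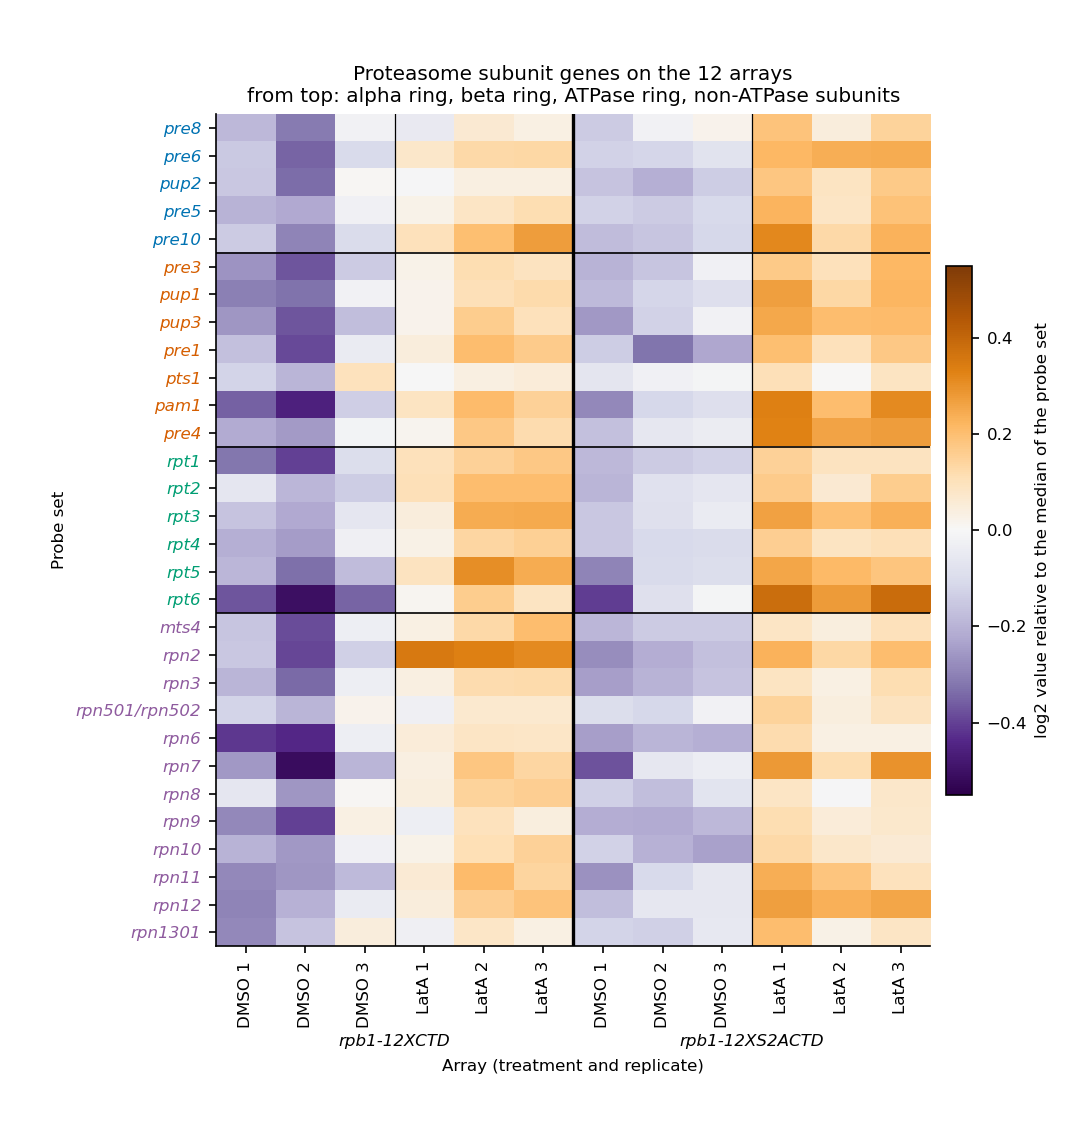
Log2 value of each of the 30 subunit genes (rows) on each of the 12 arrays (columns), relative to the median of the gene over the arrays. Orange is above and purple below that median, horizontal lines separate the subunit classes, and vertical lines separate the groups. LatA columns are orange and DMSO columns purple in most rows, with replicate 3 of DMSO-treated *rpb1-12XCTD* the palest of the DMSO columns.

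All 6 genes of the ATPase ring rose in both strains, against 27.3% of all genes in the control and 17.4% in the mutant. These subunits, of the AAA family, hydrolyse ATP to unfold the substrate and open the gate of the core. *rpt6* had the largest change of the ring, with log2 values of −0.37, −0.50 and −0.35 with DMSO and 0.011, 0.16 and 0.089 with LatA in *rpb1-12XCTD*. In *rpb1-12XS2ACTD* the values were −0.41, −0.085 and −0.011 with DMSO and 0.38, 0.28 and 0.39 with LatA. No groups overlapped within a strain, and the lowest mutant DMSO array, replicate 1, stood with the control DMSO arrays. *rpt6* rose by 0.50 ± 0.10 (SE) in the control and 0.52 ± 0.10 in the mutant (limma adjusted p = 0.00334 and 0.00347). The mutant change was the largest among the 30 genes.

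*rpt5* rose by 0.45 and 0.38 log2 in the control and the mutant, and *rpt3* by 0.33 and 0.32. *rpt2* rose by 0.30 and 0.24 and *rpt4* by 0.27 and 0.24. *rpt1* rose by 0.41 in the control and 0.26 in the mutant. The median over the ring was 0.37 in the control, the highest of the 4 classes, and 0.29 in the mutant. In the mutant the medians of the α ring (0.32) and the β ring (0.36) were higher than that of the ATPases, so the order of the classes was not the same in the 2 strains. In the control the ATPase median stayed the highest without any one DMSO array, at 0.32 to 0.42, and in the mutant the ATPase median was 0.27 without DMSO replicate 1, below 0.32 for the α and 0.31 for the β ring. No difference between classes was tested.

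Of the 12 other genes of the regulatory particle, 8 rose in each strain (27.3% and 17.4% of all genes in control and mutant). *rpn2*, for a scaffold that holds the ubiquitin receptor Rpn13, changed most in the control. Its values in *rpb1-12XCTD* were −0.15, −0.39 and −0.13 with DMSO and 0.35, 0.33 and 0.31 with LatA. In *rpb1-12XS2ACTD* they were −0.28, −0.21 and −0.17 with DMSO and 0.23, 0.13 and 0.21 with LatA. The 3 control LatA arrays were the highest of all 12, and *rpn2* rose by 0.56 ± 0.079 (SE, 1.47 fold) in the control and by 0.41 ± 0.079 (1.33 fold) in the mutant (limma adjusted p = 0.000467 and 0.00324).

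*rpn10* encodes a receptor for ubiquitin chains. It rose by 0.25 and 0.27 log2, while *rpn1301*, for a receptor of the Rpn13 kind, differed by 0.16 and 0.21 without passing the test (adjusted p = 0.175 and 0.0917). *mts4*, the Rpn1 gene, for the other large scaffold, rose by 0.31 in the control (adjusted p = 0.0181) and differed by 0.24 in the mutant (adjusted p = 0.0607).

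In the lid, *rpn11* encodes the deubiquitinase that takes ubiquitin chains off the substrate, and *rpn8* its inactive partner. *rpn11* rose by 0.38 and 0.32, and *rpn8* differed by 0.22 and 0.18 (adjusted p = 0.0513 and 0.108). The remaining lid genes encode helical scaffold proteins. *rpn7* rose by 0.44 and 0.39, *rpn6* by 0.37 and 0.28, *rpn12* by 0.31 and 0.35, and *rpn3* by 0.28 in each strain. *rpn9* differed by 0.25 in the control (adjusted p = 0.0654) and rose by 0.28 in the mutant (adjusted p = 0.0458).

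The shared probe set of *rpn501* and *rpn502* had the second smallest change of the 30. Its control values were −0.12, −0.19 and 0.020 with DMSO and −0.028, 0.067 and 0.069 with LatA, which overlapped. In the mutant they were −0.093, −0.11 and −0.020 with DMSO and 0.14, 0.043 and 0.091 with LatA, all above DMSO. The differences of 0.13 ± 0.073 (SE) and 0.17 ± 0.073 did not pass (limma adjusted p = 0.173 and 0.0977). Without DMSO replicate 3 of the control, the difference there was 0.19 and passed (adjusted p = 0.0272). The mutant difference passed after median centring, after quantile normalization and with array weights (adjusted p = 0.0294, 0.0189 and 0.00855).

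The counts in *rpb1-12XCTD* depended on single arrays and on how the spread was estimated. With each array of that strain left out in turn, the genes that rose numbered 20, 18 and 30 without DMSO replicates 1, 2 and 3, and 22, 15 and 15 without LatA replicates 1, 2 and 3. The shares of all genes that rose in these fits were 23.7%, 21.8%, 38.7%, 23.4%, 18.2% and 21.1%. The 7 genes that passed without DMSO replicate 3, but not with all arrays, were *pup2*, *pre8*, *pts1*, *rpn8*, *rpn9*, *rpn1301* and the pair *rpn501* and *rpn502*, and with array weights 27 of the 30 rose, *pup2*, *pre8*, *rpn8* and *rpn9* among them, as did 29.0% of all genes. With the 2 groups fitted alone the count was 9 (17.3% of all genes), and the methods' test, which takes the spread of a gene from its 6 arrays only, passed 0 of the 30 (15 of all genes). In *rpb1-12XS2ACTD* that test passed 26, with 17.5% of all genes. The count was 16 without DMSO replicate 1 (13.9% of all genes), 14 without LatA replicate 1 (11.7%) and 15 without LatA replicate 3 (13.3%). All 30 genes kept a higher mean with LatA in each of these fits in both strains.

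On single arrays the median of the 30 genes separated DMSO from LatA in both strains. The median of the 30 was −0.20, −0.33 and −0.039 log2 with DMSO in *rpb1-12XCTD*, where it was 0.035, 0.14 and 0.13 with LatA. In *rpb1-12XS2ACTD* it was −0.18, −0.12 and −0.082 with DMSO and 0.20, 0.097 and 0.17 with LatA. DMSO medians were all below 0 and LatA medians all above. Each gene is centred to a median of 0 over the 12 arrays. The place of 0 between the groups therefore follows from the centring, and the signs repeat the LatA difference. Replicate 3 of DMSO-treated *rpb1-12XCTD* came nearest to 0, and it also had the highest median over all genes, 0.070.

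Set against the median of all genes on the same array, the DMSO and LatA arrays were again apart, although replicate 1 and no longer replicate 3 of the control DMSO arrays was then nearest to 0. The median of the 30 minus that of all genes was −0.035, −0.23 and −0.11 on control DMSO arrays and 0.011, 0.10 and 0.11 on control LatA arrays. In the mutant it was −0.19, −0.11 and −0.083 with DMSO and 0.16, 0.11 and 0.20 with LatA. DMSO and LatA arrays did not overlap on this scale in either strain. Median centring of the arrays, which removes these offsets, left 21 genes past the threshold in the control and 27 in the mutant (23.8% and 21.0% of all genes), with a median change of 0.22 and 0.31 log2. Quantile normalization shifted the median change over all genes in the control from 0.098 to −0.016, and relative to it the 30 genes were higher by 0.21, as before the shift.

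**Figure D4:**
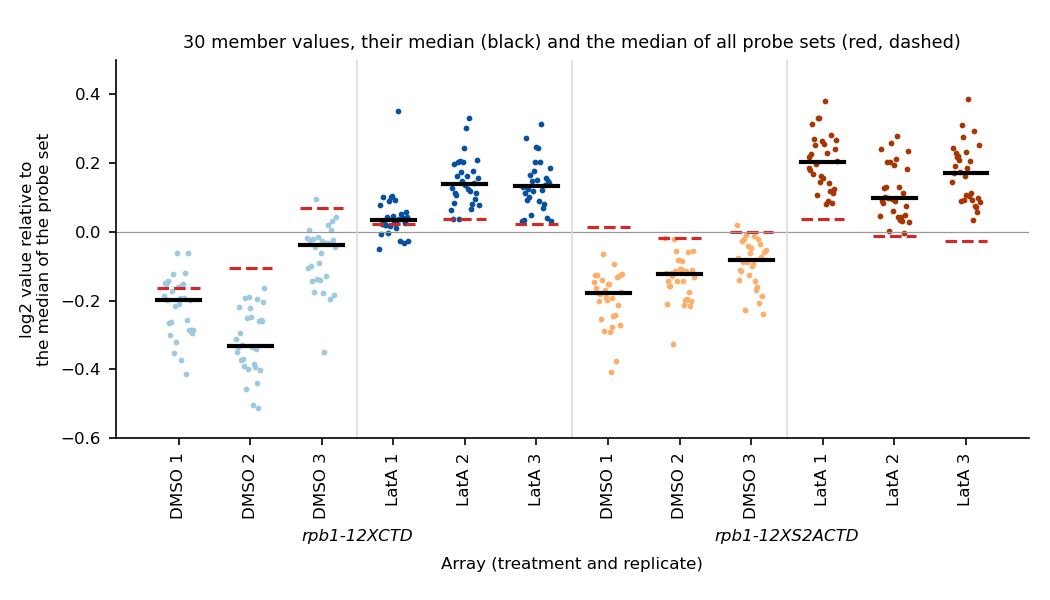
Log2 values of the 30 subunit genes on each of the 12 arrays, with points for single genes, black bars for their median and red dashed bars for the median of all 4875 genes. The black bars lie below 0 on the 6 DMSO arrays (−0.33 to −0.039) and above 0 on the 6 LatA arrays (0.035 to 0.20). The place of 0 between them follows from the centring of each gene over the 12 arrays. On DMSO arrays the black bar is below the red bar, and on LatA arrays it is above it.

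Within the 30 genes the values rose and fell together across arrays. The median Pearson r over the 435 pairs was 0.91 across the 12 arrays, with a range from 0.64 to 0.99, and it was 0.19 over pairs of all genes. With the group means taken out, so that only replicates differ, the median was 0.76 within the 30 genes and 0.34 over all pairs. Arrays with a raised or lowered overall signal add to such values. After median centring the deviations from the group means still had a median r of 0.68 within the 30, against 0.015 over all pairs, although single pairs reached −0.35. Genes shared libraries and groups in these correlations, which are given as a description. *pts1* and *rpn1301* followed the others least, with r of 0.870 and 0.872 to the median of the other 29.

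The genes are spread over the genome. In the annotation of assembly ASM294v3, 12 of the 30 lie on chromosome I, 12 on chromosome II and 6 on chromosome III. Only 3 pairs have 10 or fewer protein-coding genes between them: *rpn12* and *rpn1301* with 2, *rpt4* and *rpn8* with 5, and *pre6* and *rpn7* with 8. None of the 30 is in the lists of core stress response genes of the study (136 induced and 104 repressed genes) or in its list of 561 genes of the cellular response to stress.

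Without drug, loss of serine 2 was not accompanied by a detected change in these genes. In the comparison of *rpb1-12XS2ACTD* with *rpb1-12XCTD* on DMSO arrays, 0 of 30 genes passed the adjusted threshold in limma, against 0.964% of all genes. At an unadjusted p under 0.05 in limma 1 of the 30 passed, and 827 of all 4875 genes. The methods' test passed 0 of the 30 and 0 of all genes, so it cannot set these genes apart from the others. For 0 of 30 did the strains not overlap, compared with 9.54% of all genes. The median difference was 0.048 log2, and over all genes 0.064. The sign was not stable to scaling, since 25 genes were higher in the mutant as deposited, 14 after median centring and 6 after quantile normalization. As deposited 70.4% of all genes were higher in the mutant. Confidence intervals of 29 genes included 0, and over the 30 they reached from −0.23 to 0.46 log2, so differences beyond 1.38 fold lay outside each of them.

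The largest of these differences was that of *rpt6*, 0.24 ± 0.10 (SE; limma adjusted p = 0.259). It rested on replicates 2 and 3 of the mutant, at −0.085 and −0.011, since replicate 1 at −0.41 lay among the control values of −0.50 to −0.35. Without that array the difference was 0.36 and passed the threshold (adjusted p = 0.0279), as 7.55% of all genes did. *rpn7* differed by 0.16 (adjusted p = 0.494), with values of −0.26, −0.51 and −0.19 in the control and −0.38, −0.058 and −0.037 in the mutant. *pam1* differed by 0.15 (adjusted p = 0.431). Both had a mutant replicate 1 near the control values, as *rpt6* did. Without replicate 3 of DMSO-treated *rpb1-12XCTD*, 2 genes passed, *rpt1* and *rpn6*, as 646 of all genes then did.

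With LatA no subunit gene passed the test between strains either. The count was 0 of 30 genes in limma, against 5.6% of all genes. At an unadjusted p under 0.05 in limma 2 of the 30 passed, and 1120 of all 4875 genes. The methods' test passed *pre6* alone of the 30, and 610 of all genes. The 3 mutant arrays lay outside the 3 control arrays for 8 of 30 genes, 7 of them higher and 1 lower, and this held for 47.7% of all genes. The median difference was 0.047 log2, and −0.045 over all genes. As deposited 22 of the 30 were higher in the mutant, against 38.1% of all genes, and 25 and 26 were after median centring and quantile normalization. All 5 α genes and all 7 β genes had a higher mean in the mutant, while 4 of 6 ATPase genes and 6 of 12 other genes did.

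*rpt6* again differed most, by 0.26 ± 0.10 (SE; limma adjusted p = 0.146), with 0.38, 0.28 and 0.39 in the mutant above 0.011, 0.16 and 0.089 in the control. With DMSO the difference had been 0.24. *pre4* differed by 0.19 ± 0.079 (adjusted p = 0.192), with 0.33, 0.26 and 0.27 in the mutant and 0.016, 0.17 and 0.12 in the control. *rpn2* was the only gene with all mutant arrays below the control arrays, by −0.14 ± 0.079 (adjusted p = 0.307), since 0.23, 0.13 and 0.21 compare with 0.35, 0.33 and 0.31. *pre4* passed after median centring (adjusted p = 0.0398), and *pre4* and *rpt6* passed with the 2 LatA groups fitted alone (adjusted p = 0.0493 and 0.0194) and after quantile normalization (adjusted p = 0.0161 and 0.0496). With array weights both passed and *rpn2* did as well (adjusted p = 0.0218, 0.0113 and 0.027). *pre6* also passed with array weights and *pup2* after quantile normalization. The shares of all genes that passed were 28.0% with the 2 groups alone, 21.4% after quantile normalization and 35.9% with array weights, and 634 of the 4875 passed after median centring.

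The response to LatA was not found to differ between strains. The interaction, taken as the mutant's LatA change less the control's, passed the adjusted threshold for 0 of the 30 genes and for 0.0205% (1) of all genes. At an unadjusted p under 0.05 in limma the interaction passed for 0 of the 30 and for 536 of all 4875 genes. Its median was −0.0032 log2 over the 30 and −0.12 over all genes. The sign depended on scaling, since 13 of 30 were positive as deposited, 28 after median centring and 29 after quantile normalization. As deposited the interaction was positive for 22.5% of all genes. Every interval included 0, and together they ran from −0.40 to 0.39 log2. As ratios of the mutant's LatA fold change to the control's, these bounds are 0.76 and 1.31. These are the outermost bounds over the 30 genes, and both exceed in size the median LatA change of the control, 0.31 log2. Intervals of single genes were narrower than this range, with a median SE of 0.11 log2. The widest reached 0.35 log2 to either side of its estimate.

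The largest differences of response were those of *rpt1* and *rpn2*, with −0.15 ± 0.11 each (SE; limma adjusted p = 0.609 and 0.604), and of *pup2*, with 0.13 ± 0.12 (adjusted p = 0.662). *rpt1* had −0.32, −0.40 and −0.091 with DMSO and 0.10, 0.15 and 0.18 with LatA in the control, and −0.19, −0.14 and −0.13 with DMSO and 0.15, 0.095 and 0.091 with LatA in the mutant. *pup2* had −0.15, −0.34 and 0.0059 with DMSO and −0.0059, 0.037 and 0.035 with LatA in the control, so that these groups overlapped. In the mutant *pup2* had −0.16, −0.21 and −0.14 with DMSO and 0.18, 0.089 and 0.17 with LatA, which did not overlap. The DMSO arrays of the control had an SD of 0.16 log2 for *rpt1* and 0.17 for *pup2*, against 0.033 and 0.035 for those of the mutant.

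**Figure D5:**
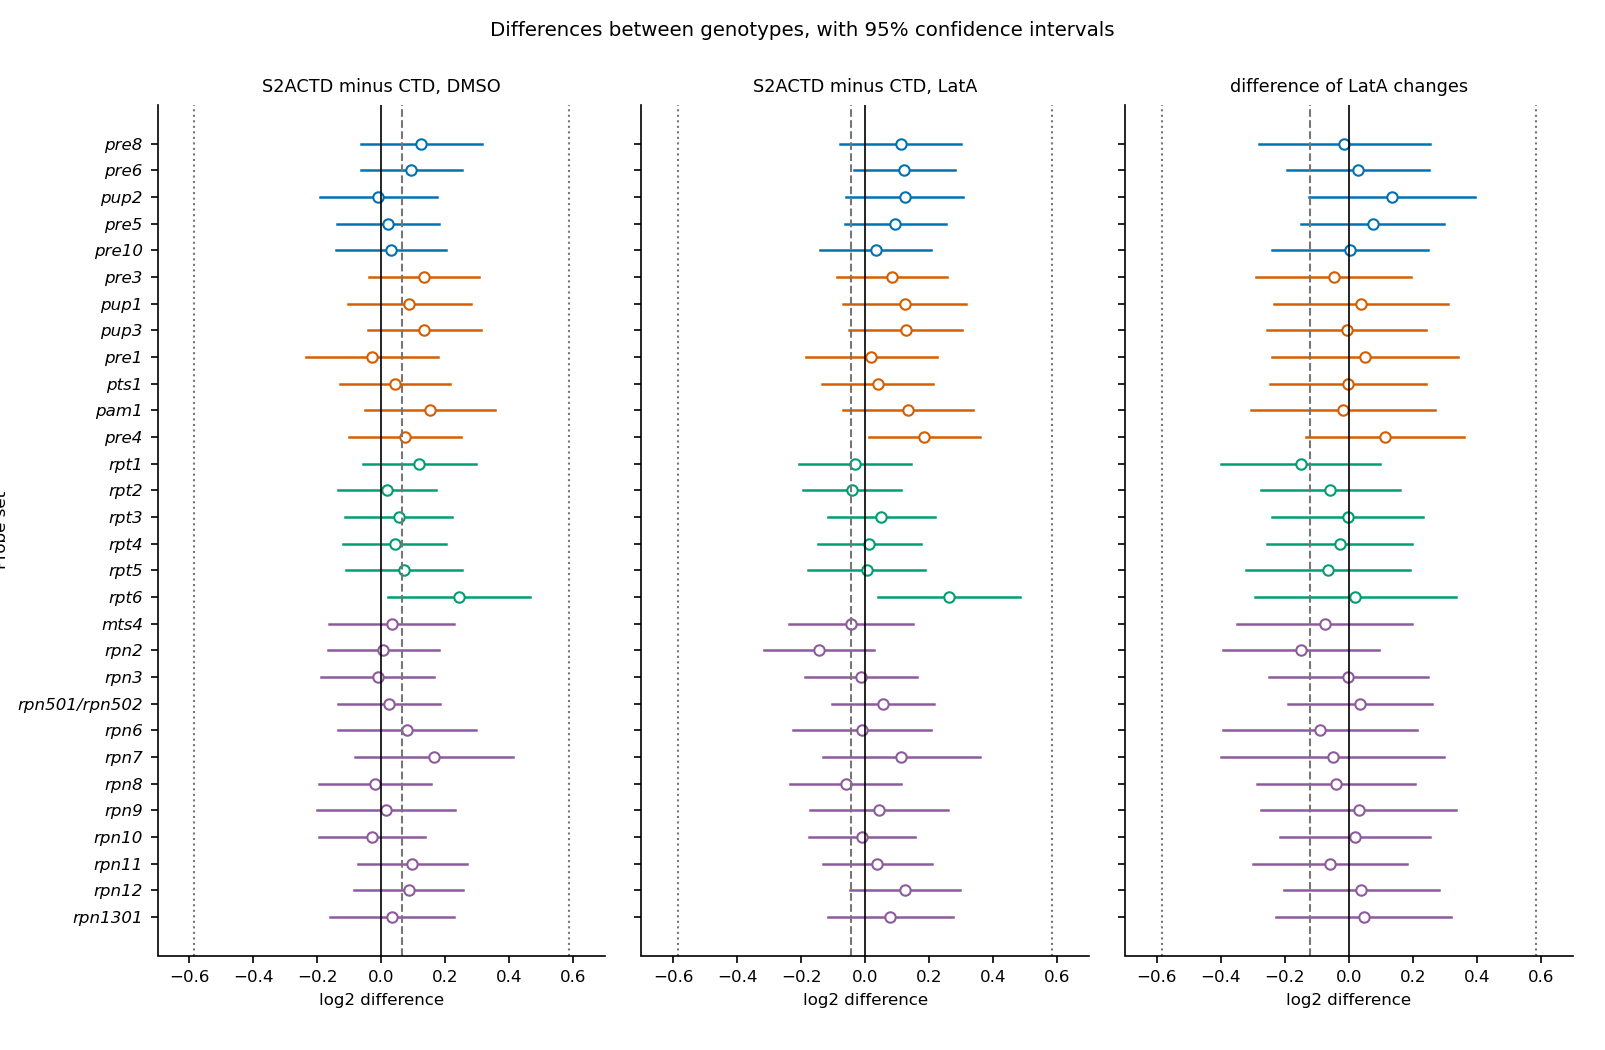
Differences between strains (log2, x axis) for the 30 subunit genes, with DMSO (left), with LatA (middle) and as the mutant's LatA change minus the control's (right), 3 arrays per group, with 95% confidence intervals from limma. No point is filled, since none passed an adjusted p under 0.05, and colours and lines are as in the plot of LatA changes. All intervals include 0 except that of *rpt6* with DMSO and those of *rpt6* and *pre4* with LatA.

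Another 3 subunit genes fall outside the symbol rule. *rpn1302*, a second gene of the Rpn13 kind, fits the symbols but its description does not name the proteasome. It rose past 1.5 fold in both strains, by 0.66 ± 0.086 (SE) and 0.59 ± 0.086 log2 (limma adjusted p = 0.000327 and 0.000854). Its values were −0.37, −0.51 and −0.20 with DMSO and 0.21, 0.38 and 0.32 with LatA in the control, and −0.31, −0.35 and −0.33 with DMSO and 0.26, 0.34 and 0.20 with LatA in the mutant. These groups were far apart, and the change exceeded that of *rpn1301*. *scl1*, for α1, differed by 0.20 in the control (adjusted p = 0.0627) and rose by 0.24 in the mutant (adjusted p = 0.0295). *dss1*, for the small lid subunit Sem1, differed by 0.019 and 0.12 and passed in neither strain.

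Of 8 genes that assemble or serve the proteasome, 2 rose in the control, where 27.3% of all genes rose and 8.33% fell. In the mutant 1 rose and 1 fell, against 17.4% and 16.0% of all genes. *ump1*, for a chaperone of core assembly, rose by 0.43 and 0.42 log2. *ubp6*, for a deubiquitinase that binds the regulatory particle, rose by 0.36 in the control. *rhp23*, for a shuttle that brings ubiquitinated proteins to the proteasome, fell by 0.28 in the mutant. The list had a median change of 0.19 in the control and 0.061 in the mutant, below that of the subunit genes in both.

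Of 18 probe sets for ubiquitin, its activating enzyme and its conjugating enzymes, 8 rose and none fell in each strain (27.3% and 17.4% of all genes rose), with a median of 0.23 in both. *ubi4*, the polyubiquitin gene, rose by 0.34 and 0.24, and *uba1*, for the activating enzyme, by 0.39 and 0.27. The probe sets of the other ubiquitin genes, *ubi1*, *ubi2*, *ubi3* and *ubi5*, passed in neither strain. That of *ubi4* is of a kind that can match several genes. *ubc6* and *ubc16* rose past 1.5 fold in the control, by 0.84 and 0.75, and *ubc8* in the mutant, by 0.71.

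The Cdc48 segregase pulls ubiquitinated proteins out of complexes and membranes ahead of the proteasome. Its 7 genes all rose in the control, by a median of 0.52 log2, and 6 rose in the mutant (27.3% and 17.4% of all genes), where the median was 0.57. *cdc48* rose by 0.43 and 0.36. Its cofactor genes *npl4* and *ufd1* rose by 0.73 and 0.52 in the control and by 0.71 and 0.69 in the mutant. *ubx4* and *ubx2* rose by 0.75 and 0.63 in the control.

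The anaphase-promoting complex is the ubiquitin ligase that marks securin and cyclin for the proteasome. Of its 14 genes 7 rose and 1 fell in the control, and 2 rose and 1 fell in the mutant, with all-gene shares of 27.3% and 8.33% in the control and 17.4% and 16.0% in the mutant, and with medians of 0.37 and 0.15. *apc2* rose by 0.86 and 0.40. *slp1*, for its mitotic activator, fell by 0.88 in the control (adjusted p = 0.0358). With LatA *cut20*, for a subunit of this ligase, was lower in the mutant by 0.63 log2 (limma adjusted p = 0.0174), the only gene among these lists to pass in a comparison of the strains. The intervals and counts of these lists were taken as for the subunit genes, and no list was tested as a whole.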

How the data were processed

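RNA was measured on Affymetrix Yeast Genome 2.0 arrays. The authors normalized the arrays by RMA (version not given in the sources used here) and deposited log2 values, which are centred on the median of each probe set over the 12 arrays by a step that these sources do not describe. A filter on low signal was therefore not possible, and all 4875 *S. pombe* probe sets were tested. The tables of the paper's supplement were used for names and list membership only. Of the 30 members 10 were named through it and 20 through the array annotation.

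A linear model of 4 group means was fitted with limma 3.58.1 in R 4.3.3, and 5 comparisons were drawn from it (Python 3.11.15 for tables). Thresholds were an adjusted p under 0.05 and 1.5 fold, and intervals are at 95%. The procedure was tested on simulated data. Members and lists were chosen with earlier results of these data known.

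Array values are printed for the 3 members with the largest and the 2 with the smallest LatA change, the 3 proteolytic β genes and the 3 members with the largest difference in each other comparison. Up to 4 called genes per further list are named, together with others named after their values were seen. Groups share the numbers 1 to 3, but among 18 same-numbered pairs only 7 deviated together with r over 0.1 (−0.40 to 0.34), so samples were not paired. Between the LatA groups of the strains these pairs had r of 0.34, 0.20 and 0.26. Between mutant DMSO and mutant LatA arrays r was 0.15, 0.074 and 0.23, so a pairing of those groups is not excluded. Alternatives were other fits, scalings and array removals. Promoter and protein sequences were not used here.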

Additional observations from a re-analysis of the deposited data

How the results depend on the processing

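Each comparison was repeated under 20 other settings. The median change of the 30 genes in *rpb1-12XCTD* was 0.19 log2 after quantile normalization, and the median interaction was −0.099 with array weights, 0.090 after median centring and 0.14 after quantile normalization. Without a fold threshold 23 genes passed in *rpb1-12XCTD* and 24 in *rpb1-12XS2ACTD*, against 0 with it. With array weights 1 gene exceeded 1.5 fold in *rpb1-12XCTD*, as 737 of all 4875 genes did in either direction. At an adjusted p under 0.05 the number that rose there was 9 with the 2 groups alone and 0 by the methods' test (17.3% and 0.308% of all genes). The strain comparison with LatA passed 2 genes with the 2 groups alone, 1 by the methods' test, 4 with array weights, 1 after median centring and 3 after quantile normalization, against 0 in the fit of all groups. Of all 4875 genes 1367, 610, 1751, 634 and 1045 passed in these settings, against 273.

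With each array left out in turn, the genes that rose numbered 15 to 30 in *rpb1-12XCTD* and 14 to 27 in *rpb1-12XS2ACTD*. Of all genes 18.2% to 38.7% and 11.7% to 20.9% rose. Of the 30, 0 to 1 exceeded 1.5 fold in each strain, while 517 to 784 and 490 to 584 of all genes did in either direction. In the strain comparison with DMSO 0 to 2 passed, against 3 to 646 of all genes. The medians ran from 0.24 to 0.38 and from 0.29 to 0.34 for LatA, from 0.013 to 0.12 and from 0.016 to 0.076 between strains, and from −0.071 to 0.054 for the interaction.

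With the replicate number as a block, 24 genes rose in *rpb1-12XCTD* and 22 in *rpb1-12XS2ACTD* (25.7% and 16.8% of all genes). In the mutant *rpn6* and *rpn9* no longer passed, and medians did not move. Same-numbered arrays did not deviate together across all groups, although they did between the 2 LatA groups and between the 2 mutant groups. Of 452 values of genes named under the rule, 419 kept their direction and their side of the threshold, 15 no longer passed, 16 newly passed and 2 changed sign. These were *pts1* in *rpb1-12XCTD* (−0.0040) and the interaction of *rpt1* (0.0037), both after quantile normalization. The cause of these shifts was not tested.

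The fit gives a gene the same spread in all groups, while the median SD between replicates ran from 0.0684 log2 in LatA-treated to 0.195 log2 in DMSO-treated *rpb1-12XCTD*. Signal over background is not kept in centred values, so that dim probe sets could not be told from bright ones.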
